A study of Mus musculus with 4 samples.

Results

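Endothelial cells, which line blood vessels, were picked out of single-cell RNA sequencing of mouse heads at stage E10.5, in midgestation. The count behind every value is the UMI (unique molecular identifier), a tag that marks a captured RNA molecule. The cells were selected on their own RNA. A cell counted as endothelial when it had at least 500 detected genes and under 10% mitochondrial UMIs, at least 1 UMI of 3 or more of the 10 genes Pecam1, Cdh5, Kdr, Tie1, Tek, Egfl7, Cldn5, Emcn, Esam and Plvap, and UMIs of at most 2 of the 6 macrophage genes C1qa, C1qb, C1qc, Csf1r, Tyrobp and Fcer1g. This rule found 255 cells among the 24259 that passed the first 2 filters, out of 25074 deposited. Libraries came from WT embryos and from Apcdd1+/- embryos, heterozygous for an altered Apcdd1 allele, 2 of each. All were labelled as embryonic brain of the same age, although the tissue taken was the head. The labels leave out how the allele was made, the strain, and the number of embryos in a library. The p-values therefore rest on these libraries only, whose spread may be technical. In the tests of genes this spread was moderated over genes.

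Endothelial cells form the inner wall of every vessel and carry the receptors through which growing vessels answer VEGF. In the embryo they sort into arteries, marked by Notch signalling and its targets, and veins, marked by the nuclear receptor COUP-TFII. Vessels that enter the neural tube also take on barrier traits, such as tight junctions and glucose and amino acid transporters, under Wnt/beta-catenin signalling. Apcdd1 encodes a membrane glycoprotein known to inhibit Wnt signalling.

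The 10 endothelial genes of the rule came with the following levels, which chose the cells and are given as a description. Levels are CPM, a gene's UMIs summed over the cells of a set and divided by all UMIs of that set, per 1000000. Values stand in the order Apcdd1+/- replicate 1 and 2, then WT replicate 1 and 2. Kdr, the main VEGF receptor, had 715, 510.1, 630.4 and 461 CPM. Emcn, a sialomucin of the cell surface, had 528, 376, 433 and 186 CPM, and Egfl7, a protein secreted by endothelium, had 489.9, 470.3, 381 and 250.5 CPM. Each of these was lowest in WT replicate 2. Cldn5, the claudin of endothelial tight junctions, had 462, 383, 393 and 174 CPM, Pecam1 (CD31, a junction adhesion molecule) had 235, 112, 177 and 132 CPM and Cdh5 (VE-cadherin) had 187, 67.2, 138 and 82.3 CPM. In all other kept cells together the same 10 genes had between 0.11 and 11.5 CPM, the highest being Egfl7. Of the 6 macrophage genes, C1qa, C1qb, C1qc and Csf1r were at 0 in the endothelial cells of all 4 libraries. Fcer1g, a signalling chain also known from platelets, had 8.92, 74.7, 1.43 and 1.83 CPM and Tyrobp had 0.637, 34.8, 0 and 1.83 CPM. In cells with 6 or more of the 10 endothelial genes Fcer1g was at 3.35 CPM or less and Tyrobp at 0. The label thus fits Pecam1, Cdh5, Kdr, Egfl7 and Cldn5, but these are in the rule, and endothelial genes outside it, such as Erg, Cd93 and Flt1, are given below.

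RefSeq promoters (GRCm38.p6, 250 bases before to 50 after a transcript start) are shown for the markers Egfl7, Kdr and Cldn5, because they are among the genes that define the cells. Capitals mark the 6 letters AGGAAG, the core bound by ETS factors such as ERG and FLI1, or CTTCCT, the same core on the other strand.
Egfl7, chr2:26580833-26581132, plus strand: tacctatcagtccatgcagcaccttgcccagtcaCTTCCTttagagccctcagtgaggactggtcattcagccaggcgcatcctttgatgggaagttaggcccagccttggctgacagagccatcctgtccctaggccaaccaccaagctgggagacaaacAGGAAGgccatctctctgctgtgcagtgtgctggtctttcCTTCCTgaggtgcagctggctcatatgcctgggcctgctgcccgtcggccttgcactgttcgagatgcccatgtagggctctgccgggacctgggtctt
Egfl7, chr2:26583615-26583914, plus strand: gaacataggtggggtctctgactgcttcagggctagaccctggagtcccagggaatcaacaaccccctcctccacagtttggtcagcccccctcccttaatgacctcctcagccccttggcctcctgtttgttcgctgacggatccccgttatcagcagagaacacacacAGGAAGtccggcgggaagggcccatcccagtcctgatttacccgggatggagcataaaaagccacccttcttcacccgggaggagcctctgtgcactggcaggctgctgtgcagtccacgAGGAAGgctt
Kdr, chr5:75978406-75978705, minus strand: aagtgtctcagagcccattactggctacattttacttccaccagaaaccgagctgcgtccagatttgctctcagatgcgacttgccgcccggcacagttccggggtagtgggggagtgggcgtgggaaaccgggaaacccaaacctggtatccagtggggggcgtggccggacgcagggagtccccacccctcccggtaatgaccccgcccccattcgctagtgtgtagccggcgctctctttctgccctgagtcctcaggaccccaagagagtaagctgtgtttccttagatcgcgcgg
Cldn5, chr16:18776597-18776896, plus strand: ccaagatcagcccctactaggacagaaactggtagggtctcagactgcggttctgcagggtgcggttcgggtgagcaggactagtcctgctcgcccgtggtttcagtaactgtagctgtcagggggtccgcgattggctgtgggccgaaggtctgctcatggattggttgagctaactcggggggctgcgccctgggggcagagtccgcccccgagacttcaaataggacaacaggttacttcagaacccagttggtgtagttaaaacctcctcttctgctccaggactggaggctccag
The first of these Egfl7 starts had 3 matches and the second 2. Another Egfl7 start, Kdr and Cldn5 had 0 in this window. Of the 8 promoters in the table for 6 of the 10 endothelial genes of the rule, 4 (50%) held AGGAAG on either strand, and of 9 promoters for 8 of the 15 genes given below as highest at 50 CPM or more against other cells, 3 (33.3%) did. Among all 32851 promoters the share was 35.4%. The GATA core AGATAA was in 1 (12.5%) and 2 (22.2%) of these promoters against 11.2% of all, and the SOX core ACAAT was in 2 (25%) and 4 (44.4%) against 31%. A match is a description of letters and not a bound site.

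Libraries differed in depth and in how many endothelial cells they gave. The 4 libraries held 2956 to 9501 kept cells and 12 to 118 endothelial cells with 6 or more of the 10 genes. Endothelial cells made up 1.38% of kept cells in Apcdd1+/- replicate 1 (131 cells), 0.415% in Apcdd1+/- replicate 2 (23 cells), 1.25% in WT replicate 1 (78 cells) and 0.778% in WT replicate 2 (23 cells). Their median was 11919 to 20746 UMIs a cell, against 8934.5 to 17133.5 in all kept cells. The Y-linked genes Ddx3y, Eif2s3y, Kdm5d and Uty were high in 1 library of each genotype, Apcdd1+/- replicate 2 and WT replicate 1, and low or at 0 in the other two. The deposited bead barcode lists shared 6 to 25 barcodes between any 2 libraries, of 4185 to 7281.

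The number of endothelial genes found in a cell fell into 2 ranges. Of the 255 cells, 104 had all 10 genes and 57 had 9, while 23 had exactly 3, 9 had 4 and 5 had 5. Just outside the threshold, 310 kept cells had exactly 2. Cells with 3 to 5 genes were 13 of 131 (9.92%) in Apcdd1+/- replicate 1, 4 of 23 (17.4%) in Apcdd1+/- replicate 2, 9 of 78 (11.5%) in WT replicate 1 and 11 of 23 (47.8%) in WT replicate 2, which stood apart. Of these 37 cells, 22 (59.5%) also had 3 or more markers of another class (neural, mesenchymal or erythroid), against 12 of the 218 cells (5.50%) with 6 or more genes. Pericyte, platelet and epithelial markers did not enter this count. They also did not enter the setting below without cells that carried another class's markers, which therefore did not remove cells for platelet genes. Kdr had 71.1 ± 35.8 CPM in cells with 3 to 5 genes against 806 ± 180.4 CPM in the rest (mean ± SD, n = 4 libraries). Doublets were not removed, and whether the cells with 3 to 5 genes are doublets, other cells with free RNA or endothelial cells of low content was not tested. Several counts, signs and shares below are therefore also given for cells with 6 or more rule genes.

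**Figure D1:**
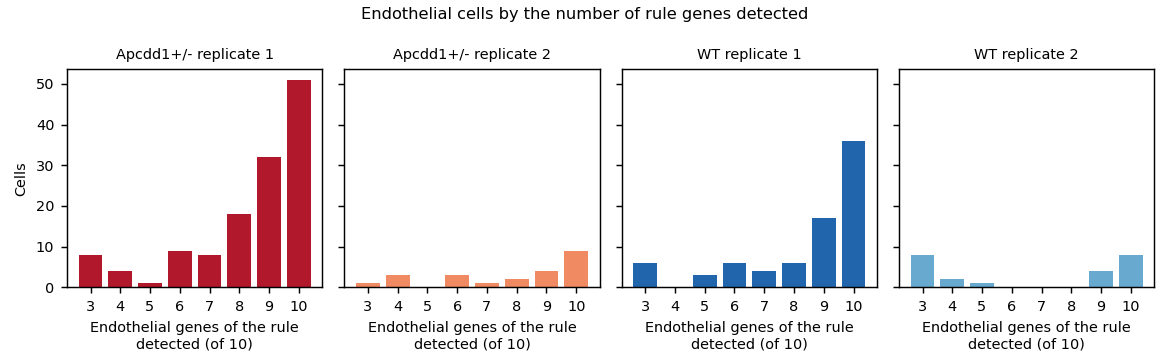
Number of endothelial cells (y axis) by how many of the 10 endothelial genes of the rule were detected in the cell (x axis, 3 to 10), 1 panel per library. Most cells have 8 to 10 genes, and WT replicate 2 has 11 of its 23 cells at 3 to 5 genes and none at 6 to 8.

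The endothelial cells were then set against all 24004 other kept cells, with the library as a block. Among genes at 50 CPM or more outside the rule, those with the highest difference included Aplnr, Cd93, Robo4 and Gja4, and those with the lowest were the globins Hba-x, Hba-a2, Hbb-y and Hba-a1 and the neuronal gene Ina. Because the cells were divided by their own RNA, this contrast describes them and tests nothing about the rule. Of 15127 genes tested with edgeR's quasi-likelihood test, 33.4% passed an adjusted p of 0.05, 16% higher and 17.4% lower, and nothing beyond a description is read from the counts of the lists below. Aplnr, the apelin receptor of venous and sprouting endothelium, had 601, 403, 445 and 168 CPM in endothelial cells and 0.358, 0.0864, 0.186 and 0.147 CPM in others, a log2 difference of 11.05, SE 0.19. Cd93, a C-type lectin receptor, had 358, 192, 314 and 216 CPM against 0.179, 0.121, 0.0992 and 0.165 (log2 difference 10.98, SE 0.18). The groups were far apart in every library. Robo4, a guidance receptor that stabilises vessels, had 101, 102, 107 and 73.1 CPM against 0.211, 0.0691, 0.174 and 0.22 (log2 difference 9.17, SE 0.29). Gja4, the arterial connexin 37, had 317, 234, 448 and 247 CPM against 0.833, 0.57, 0.645 and 0.477 (log2 difference 8.99, SE 0.16). The other genes of the 15 with the highest difference among those at 50 CPM or more were Pcdh12, Mmrn2, Gimap6, C130074G19Rik, Clec1b, Col15a1, She, Tmem204, Ctla2a, Epas1 and Icam2, at log2 differences from 8.34 to 9.56. At the other end, Hba-x, an embryonic alpha globin, had a log2 difference of -6.49, Hbb-y -5.68, and Ina, a neuronal intermediate filament, -5.29.

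Transcription factors that set endothelial fate were higher as a group. Of 19 tested, 17 were higher and 1 lower, with a median log2 difference of 4.0 beside -0.12 over all genes tested. Erg, an ETS factor, had 109, 67.2, 84.8 and 56.7 CPM against 0.506, 0.518, 0.769 and 0.752 in other cells (log2 difference 7.05, SE 0.28). Sox17 and Sox7, SoxF factors of early and arterial endothelium, had log2 differences of 10.60 and 9.91. Klf2, induced by flow, had 6.07 and Lmo2, a partner of Tal1, 5.47. The 1 lower factor was the venous Nr2f2 (COUP-TFII), at -0.62, SE 0.13, with 115, 89.6, 117 and 124 CPM in endothelial cells and 143, 216, 171 and 234 in others.

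Receptors and signalling molecules followed. Of 24 surface and signalling genes tested, 23 were higher and 1 was lower, the endothelin receptor Ednrb at -2.26, SE 0.39. Of 14 VEGF and angiopoietin genes, 8 were higher and 2 lower (5 lower in cells with 6 or more rule genes). Flt1, the decoy VEGF receptor, had 700.2, 485, 629 and 413 CPM against 1.39, 2.82, 1.22 and 2.73 (log2 difference 8.26, SE 0.25), and Flt4, the VEGF-C receptor, had 113, 132, 112 and 43.9 CPM against 0.432, 0.415, 0.335 and 0.367 (log2 difference 8.06, SE 0.26). Both were high in every library. Of 18 artery and Notch genes, 14 were higher and 0 lower, among them Dll4, the endothelial Notch ligand, at 5.13, SE 0.43. Of 15 tip cell genes, 12 were higher and 0 lower. Pdgfb, through which sprouts attract pericytes, had 174, 89.6, 133 and 65.8 CPM against 0.854, 0.708, 0.508 and 0.881 (log2 difference 7.39, SE 0.26). Of 15 vein and lymphatic genes, 7 were higher and 4 lower, and the lymphatic factor Prox1 was lower at -1.90, SE 0.46. Of 16 basement membrane genes, 14 were higher and 0 lower, with Col4a1 (collagen IV) at 707, 530, 773 and 708 CPM against 49.5, 51.4, 62.1 and 53.8 (log2 difference 3.72, SE 0.09).

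Barrier and Wnt genes were mixed at this stage. Of 24 genes of brain vessel barrier and transport, 13 were higher and 5 lower in endothelial cells. Slc2a1, the glucose transporter GLUT1, had 292, 256, 229 and 230.4 CPM against 68.1, 54.6, 47.9 and 52.5 (log2 difference 2.25, SE 0.10). Foxq1 and Foxf2, forkhead factors of brain endothelium, were higher at 5.86, SE 0.57 and 2.63, SE 0.28. Abcb1a, the efflux pump P-glycoprotein, was low but higher than elsewhere, at 15.9, 9.95, 15.7 and 3.66 CPM against 0.242, 0.19, 0.211 and 0.22. Mfsd2a, the lipid transporter that limits transcytosis in mature brain vessels, was lower in endothelial cells, with 0.637, 0, 4.27 and 7.31 CPM against 13.6, 15.4, 13.1 and 13.2 (log2 difference -2.18, SE 0.48). Of 18 genes of the Wnt receptor complex of endothelium and its effectors, 8 were higher and 3 lower (6 lower in cells with 6 or more rule genes). Fzd4, the receptor for norrin and Wnt7, had 51, 29.9, 46.3 and 20.1 CPM against 7.06, 5.79, 6.13 and 6.62 (log2 difference 2.62, SE 0.27), and its partner Adgra2 (GPR124) had 47.1, 24.9, 48.4 and 42.1 CPM against 6.3, 5.53, 7.64 and 6.26 (log2 difference 2.74, SE 0.24). The feedback target Axin2 was lower at -1.0, SE 0.36 and the effector Tcf7l2 lower at -1.51, SE 0.16.

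Part of the cell cycle genes were lower than in other head cells, and most immediate early genes were higher. Of 18 S phase genes, 7 were lower and 1 higher, with a median log2 difference of -0.15 beside -0.12 over all genes. Of 18 G2/M genes, 9 were lower and 1 higher, with a median of -0.35. Mcm7, a subunit of the replicative helicase, had 274, 363, 260 and 259.7 CPM against 477, 519, 421 and 396 (log2 difference -0.59, SE 0.08). Top2a, a topoisomerase of dividing cells, had 254, 324, 222 and 421 CPM against 438, 490.4, 469 and 554 (log2 difference -0.66, SE 0.09). Mcm3, at 0.43, SE 0.11, and Cdk1, at 0.51, SE 0.11, were the higher members. Of 17 immediate early genes, which are also induced by tissue dissociation, 12 were higher and 0 lower, with Atf3 at 54.8, 229, 67 and 29.3 CPM against 5.88, 6.37, 9.4 and 6.04 (log2 difference 3.52, SE 0.33). When Apcdd1+/- replicate 2 was left out, 10 of the 17 were higher and 2 lower. Without WT replicate 1 the counts of lower genes were 4 of 18 for S phase and 3 of 18 for G2/M, and without the library block the S phase count was 4. The number of negative S phase differences was 13 of 18, and 10 of 18 without WT replicate 2.

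Markers of other cell types bore on how pure the set was. Erythroid markers summed to 61.2 to 249 CPM over 12 genes in endothelial cells against 2869 to 6451 in the rest, and neural markers to 289 to 388 CPM over 10 genes against 1339 to 1441. Mesenchymal markers summed to 9.95 to 59.8 CPM over 9 genes in 3 libraries and to 501 CPM in WT replicate 2, against 228 to 294 CPM in other cells. In WT replicate 2 the sum was 845 CPM in cells with 3 to 5 rule genes and 8.89 CPM in those with 6 or more. Pericyte markers summed over 10 genes to 37.6, 44.8, 58.4 and 122.5 CPM, against 82.1, 120.2, 102.8 and 108.3 CPM in other cells. Of 8 pericyte markers tested, 1 was higher, Abcc9, and 1 lower. Macrophage markers summed over 11 genes to 96.2, 299, 91.2 and 78.6 CPM in endothelial cells and to 59.2, 162, 55.6 and 102 CPM in other cells, higher in 3 of 4 libraries. In cells with 6 or more rule genes the sums were 90.8, 134, 100.8 and 97.8 CPM. Of the 5 such markers tested outside the rule, 1 was higher, Laptm5, and 3 were lower (1 with DESeq2). Of 7 platelet markers, 6 were higher in endothelial cells and 0 lower, but in cells with 6 or more rule genes 1 was higher and 2 lower. Platelet markers summed to 2824, 12080, 61.8 and 270.3 CPM in the cells with 3 to 5 rule genes and to 18.3 to 40.2 CPM in the others. Only 5 cells had 3 or more platelet genes, all with 5 or fewer rule genes, and they held 290 of 290, 997 of 998 and 48 of 48 UMIs of Pf4 (platelet factor 4) in the 3 libraries that had such a cell.

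**Figure D2:**
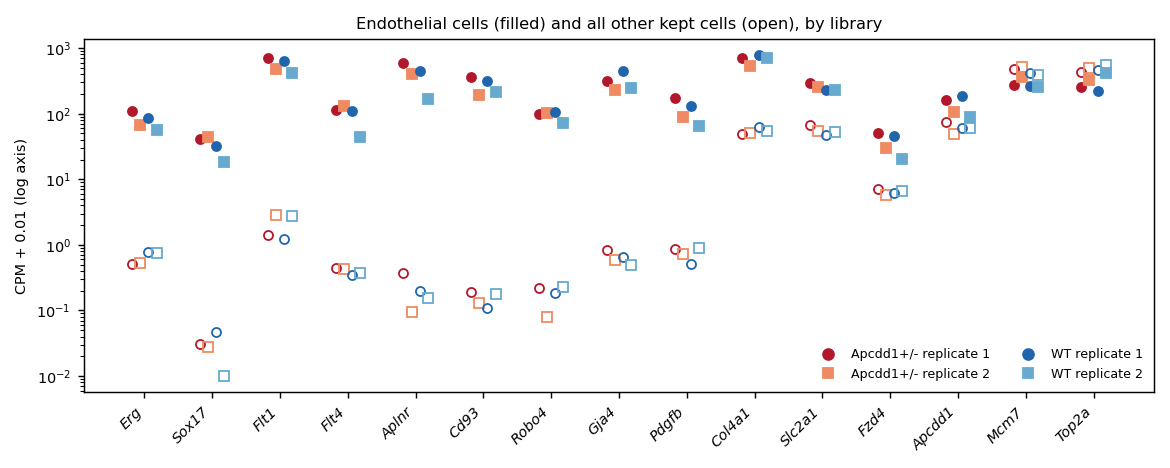
CPM plus 0.01 on a log axis (y) for 15 genes outside the rule (x), in endothelial cells (filled) and all other kept cells (open), 1 symbol per library. Aplnr and Cd93 lie at 168 CPM or more in endothelial cells and under 0.4 CPM elsewhere, while Mcm7 and Top2a lie lower in endothelial cells than in the other cells of the same library.

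Within the endothelial cells, arterial and venous cells were set apart. A cell thinned to 4000 UMIs was marked artery when it had 2 or more of Gja4, Gja5, Efnb2, Dll4, Hey1, Sox17 and Unc5b and more of these than of the vein genes Nr2f2, Aplnr, Ephb4, Nrp2, Flt4, Lyve1 and Stab2, and vein in the reverse case. Of 233 cells with that depth, 47 were artery-marked and 118 vein-marked. Only Apcdd1+/- replicate 1 (25 and 62 cells) and WT replicate 1 (14 and 38 cells) had 10 or more of each, so the fit rests on these 2 libraries with the library as a block. The other libraries had 3 to 12 cells of a kind, where 1 UMI is worth 4.80 to 33.4 CPM.

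Artery-marked cells had more of other arterial, guidance and matrix genes and less of the replication genes. The marking genes are left out of all counts. Of 6666 genes tested with edgeR, 334 (5.01%) passed an adjusted p of 0.05, 222 (3.33%) higher and 112 (1.68%) lower in artery-marked cells. DESeq2 called 63 genes, and 180 genes were called without cells that carried another class's markers. Of 8 artery and Notch genes not used for marking, 7 rose and 0 fell (3 rose with DESeq2), with a median log2 difference of 1.72 beside 0.00 over all genes. Mecom, a transcription factor of arterial endothelium, had 159, 334, 278 and 307 CPM in artery-marked cells and 20.2, 9.61, 11.2 and 0 CPM in vein-marked cells (log2 difference 3.61, SE 0.36, edgeR adjusted p = 1.4e-07). The ranges over libraries did not overlap. Notch4, an endothelial Notch receptor, had 169, 167, 209.8 and 248 CPM against 51.1, 48, 44.7 and 52.7 (log2 difference 1.87, SE 0.28, adjusted p = 0.00011). Vwf, von Willebrand factor, had 146, 33.4, 202 and 256 CPM against 3.57, 0, 6.99 and 0 (log2 difference 4.90, SE 0.43). Vein-marked cells of 2 libraries had 0 UMIs of Vwf, and the 33.4 CPM in artery-marked cells of Apcdd1+/- replicate 2 was 1 UMI. Sat1, an enzyme of polyamine breakdown, had 480.3, 968, 448 and 1033 CPM against 29.7, 62.5, 16.8 and 137 (log2 difference 4.21, SE 0.27). Npr3, a natriuretic peptide receptor, had 252, 234, 339 and 529 CPM against 26.1, 57.7, 23.8 and 42.1 (log2 difference 3.43, SE 0.29). Each of these 5 was higher in artery-marked cells in all 4 libraries and passed under all 8 other settings tried. In this fit the settings of 4 or more and of 6 or more rule genes held the same cells, so they count as 1. Other called genes among the largest positive differences at 20 CPM or more were Aqp1, Slc45a4, Prn, Dmd, Depp1, Abtb2, Stmn2 and Plcg2.

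Matrix and signalling genes showed the same side. Of 15 basement membrane genes 10 rose and 1 fell (6 and 0 with DESeq2), and Fn1 (fibronectin) had 1146, 1136, 1105 and 1887 CPM against 465, 466, 317 and 558 (log2 difference 1.45, SE 0.19, edgeR adjusted p = 1.9e-05). Col4a1 had 1146, 1002, 1795 and 1844 CPM against 569, 682, 581 and 727 (log2 difference 1.22, SE 0.20). The laminin receptor subunit Itga6 was the member that fell, at -1.36, SE 0.29. Of 7 VEGF and angiopoietin genes 5 rose and 0 fell. Vegfc had the largest difference, at 3.71 to 4.26 over the 8 other settings, and passed in 7 of them. Nrp1, a VEGF co-receptor of arteries, rose at 1.58, SE 0.22. Among genes that fell, Hapln1, a hyaluronan link protein, had 123, 33.4, 72.6 and 119.5 CPM against 259, 274, 240.4 and 211 (log2 difference -1.44, SE 0.26). The mesenchymal collagens Col3a1 and Col1a2 fell too, at -3.99, SE 0.90 and -3.43, SE 0.97. Mesenchymal markers summed to 3.31 and 8.07 CPM in artery-marked cells of the 2 libraries of the fit and to 57.05 and 75.46 CPM in vein-marked cells, and their part in the result was not tested.

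All 18 S phase genes had a negative log2 difference in artery-marked cells, and 10 of them fell. Uhrf1, which keeps DNA methylation through replication, had 96.1, 33.4, 40.3 and 76.8 CPM against 184, 120.1, 177 and 105 (log2 difference -1.48, SE 0.30, edgeR adjusted p = 0.00327). Mcm7 had 189, 234, 84.7 and 76.8 CPM against 296, 346, 288 and 253 (log2 difference -1.19, SE 0.26, adjusted p = 0.00503). The 18 genes together summed to 2146, 1102, 1327 and 1153 CPM in artery-marked cells and to 3110, 2657, 2977 and 2191 CPM in vein-marked cells, lower in every library. Fewer dividing cells and less RNA per dividing cell cannot be told apart in such sums. With DESeq2 0 of the 18 passed, in cells with 6 or more rule genes 5 passed and without cells that carried another class's markers 2 passed, with 18 of 18 negative each time. Of 17 G2/M genes 0 passed, but 10 of 16 fell when cells were thinned to 2500 UMIs.

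Barrier traits were read in the same way. A cell was marked barrier when it had 2 or more of Mfsd2a, Slco1c1, Lef1, Foxq1, Foxf2, Tnfrsf19, Spock2, Slc2a1 and Slc38a5 at 4000 UMIs, and unmarked when it had 0. There were 58 barrier-marked and 74 unmarked cells, with 101 cells in between. Of the 47 artery-marked cells 18 (38.3%) were also barrier-marked, which is 31% of the 58, so this contrast and the last share cells. The fit again used Apcdd1+/- replicate 1 (27 and 32 cells) and WT replicate 1 (18 and 28 cells).

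Of 5997 genes tested, 353 (5.89%) passed in edgeR, 191 (3.18%) higher and 162 (2.70%) lower in barrier-marked cells. This count depended on the setting: DESeq2 called 30 (21 higher and 9 lower), all 4 libraries gave 45, and cells with 6 or more rule genes gave 178. The genes described first passed under all 8 other settings. Gja4 had 771, 542, 980.2 and 549.5 CPM in barrier-marked cells and 21, 78.1, 209.7 and 3.71 CPM in unmarked cells (log2 difference 2.94, SE 0.18, edgeR adjusted p = 7.1e-56). The 2 fitted libraries differed widely in this gap, with 771 against 21 CPM in Apcdd1+/- replicate 1 and 980.2 against 209.7 CPM in WT replicate 1. The spread was moderated over genes, so the small SE and p-value do not measure how far these libraries disagreed for Gja4. Fn1 had 1199, 618, 966 and 1412 CPM against 357, 123, 255 and 200.5 (log2 difference 1.76, SE 0.14). Igfbp7, a secreted protein of vessel walls, had 72.9, 0, 235 and 10.8 CPM against 2.1, 11.2, 3.65 and 0, where 1 or 2 UMIs lay behind each value above 0 in unmarked cells, and it was not higher in Apcdd1+/- replicate 2. Npr3 had 152, 55.6, 138 and 215 CPM against 16.8, 22.3, 25.5 and 55.7 (log2 difference 2.67, SE 0.37). Other called genes among the largest positive differences at 20 CPM or more were Apod, Htra3, Itga4, Acer2, Plcg2, Slco2b1 and Dusp27. None of these passed under every setting.

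Barrier genes that had not been used to mark the cells rose together with the marks. Of 10 tested, 6 rose and 0 fell, Apcdd1 among them, and with DESeq2 1 rose. Abcb1a had 36.4, 20.8, 54.5 and 0 CPM against 2.1, 0, 0 and 0 (edgeR adjusted p = 1.1e-05), with 1 UMI in all unmarked cells, and was not higher in WT replicate 2. Slc7a5, the large neutral amino acid transporter, had 100.2, 55.6, 112 and 21.5 CPM against 6.31, 0, 31 and 11.1 (log2 difference 2.43, SE 0.41, adjusted p = 5.7e-07). Its heavy chain Slc3a2 had 197, 41.7, 126 and 64.6 CPM against 65.2, 33.5, 40.1 and 44.5 (log2 difference 1.55, SE 0.30). Abcb1a, Slc7a5 and Slc3a2 each passed under 6 of the 8 other settings. Of 14 artery and Notch genes 10 rose and 0 fell, and of 8 vein and lymphatic genes 0 rose and 4 fell, Nr2f2 among them at -1.38, SE 0.29. With DESeq2 these counts were 1 of 14 and 0 of 8. Of 18 S phase genes 7 fell and all 18 had a negative difference, but 3 fell in cells with 6 or more rule genes, and DESeq2 and the fit over all 4 libraries each called 0.

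Neural genes fell as well in edgeR, and whether the cells with few rule genes had a part in this was not tested. Sox2, a factor of neural progenitors, had 3.04, 0, 2.87 and 10.8 CPM in barrier-marked cells and 46.2, 0, 85.7 and 100.2 CPM in unmarked cells (edgeR adjusted p = 7.5e-08). Fabp7, a fatty acid binding protein of radial progenitors, had 0, 0, 2.87 and 0 CPM against 69.4, 0, 85.7 and 126. Each value above 0 in barrier-marked cells was 1 UMI. Of the unmarked cells 5, 2, 4 and 8 had 3 to 5 rule genes in the 4 libraries, against 0, 0, 1 and 0 of the barrier-marked cells. In cells with 6 or more rule genes, 1 of the 10 neural markers could still be tested and 0 passed, and with DESeq2 0 of 4 passed.

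**Figure D3:**
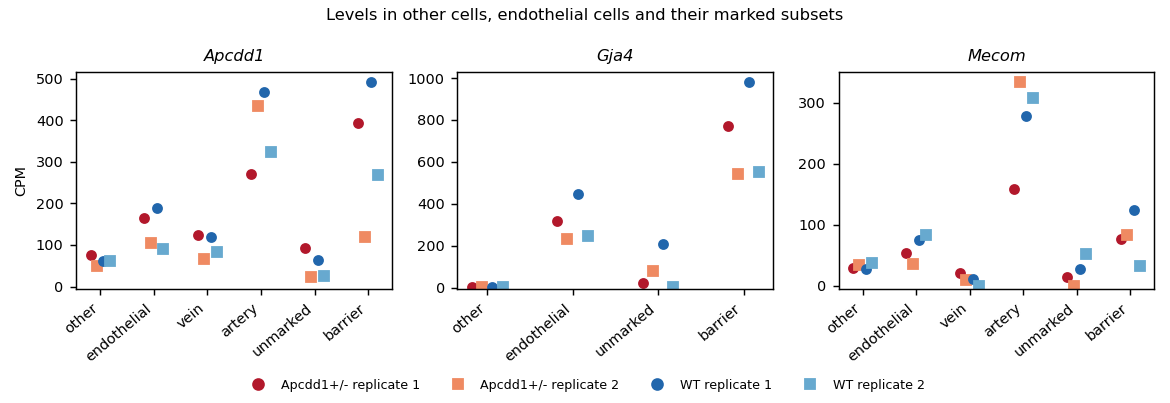
CPM (y axis) of Apcdd1, Gja4 and Mecom in other kept cells, all endothelial cells, vein- and artery-marked cells, and unmarked and barrier-marked cells (x axis), 1 symbol per library. Gja4 is not shown for artery and vein because it marks arteries. Apcdd1 is higher in artery-marked than vein-marked and in barrier-marked than unmarked cells in each library.

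**Figure D4:**
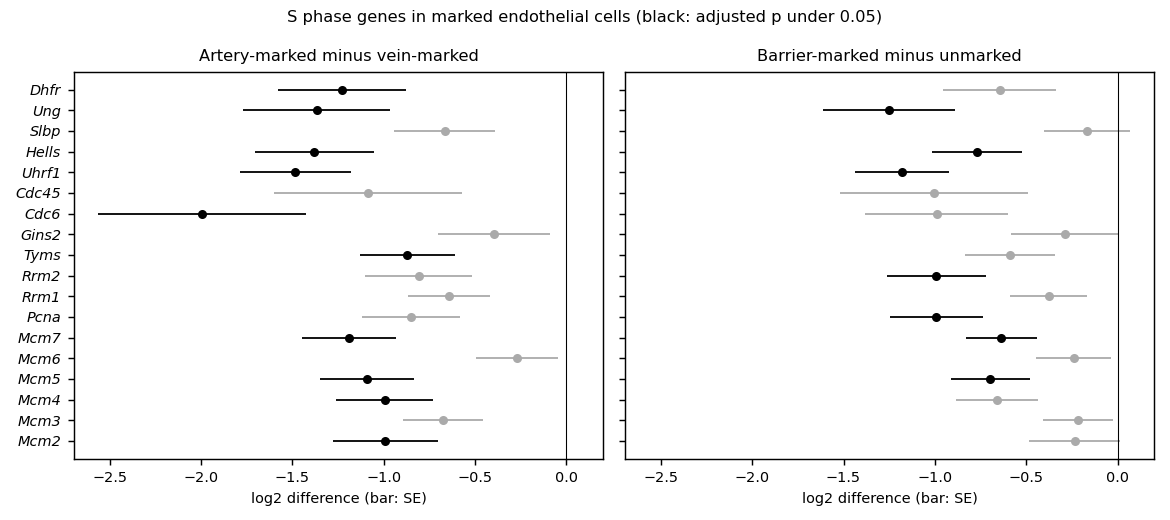
Log2 difference (x axis, bar SE) of 18 S phase genes (y axis) between artery-marked and vein-marked cells (left) and between barrier-marked and unmarked cells (right), from the fits on 2 libraries. Black points passed an adjusted p of 0.05 and grey points did not. All points lie below 0.

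Apcdd1 itself, the gene altered in the study, varied between kinds of endothelial cell. It had 164, 105, 189 and 89.6 CPM in endothelial cells and 76, 49.1, 61.2 and 60.5 CPM in others (log2 difference 1.22, SE 0.14), higher in each library. In artery-marked cells it had 272, 434, 468 and 324 CPM against 125, 67.3, 120.2 and 84.3 CPM in vein-marked cells (log2 difference 1.45, SE 0.23, edgeR adjusted p = 0.00017). In barrier-marked cells it had 395, 118, 493 and 269 CPM against 92.5, 22.3, 63.8 and 26 CPM in unmarked cells (log2 difference 2.44, SE 0.22, adjusted p = 3.5e-25). Both fits rest on 2 libraries with the spread moderated over genes, so these p-values do not measure how Apcdd1 itself varied between libraries. Apcdd1 was higher in every library in both contrasts, and across libraries the lowest barrier-marked value, in Apcdd1+/- replicate 2, was still above the highest unmarked value. Under all 8 other settings both differences passed, at 1.37 to 2.26 for artery and 2.42 to 2.76 for barrier. For artery, 2 of these settings held the same cells. Counted in cells at 4000 UMIs, Apcdd1 was found in 32 of 58 barrier-marked cells (55.2%), 27 of 101 with 1 barrier gene (26.7%) and 7 of 74 unmarked cells (9.46%), pooled over libraries. In WT replicate 2, with 6 and 8 cells, the share was 33.3% in barrier-marked cells and 37.5% in cells with 1 barrier gene. It was found in 22 of 47 artery-marked (46.8%) and 32 of 118 vein-marked cells (27.1%), but in Apcdd1+/- replicate 1 these shares were 32% and 32.3%, close to each other although the CPM differed.

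Between genotypes, the level of Apcdd1 in endothelial cells did not separate the labels. Apcdd1 had 164 and 105 CPM in the Apcdd1+/- libraries and 189 and 89.6 CPM in WT, and the ranges overlapped (log2 difference -0.03, SE 0.36, edgeR adjusted p = 0.999). In cells with 6 or more rule genes the levels were 167, 97.2, 219.9 and 204 CPM, with both WT libraries above both Apcdd1+/- libraries and a log2 difference of -0.60 that did not pass. The labels leave out which stretch of the gene is altered, so the RNA level is no check of the labels by itself.

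No gene passed between the genotypes. Of 8514 genes tested with edgeR 0% passed an adjusted p of 0.05, 281 had an unadjusted p under 0.05, and DESeq2 called 1, Ccnd2. With 2 libraries a side the count turned on single libraries: it was 73 without Apcdd1+/- replicate 1, 22 without Apcdd1+/- replicate 2, 75 without WT replicate 1 and 9 without WT replicate 2. Each of these fits has 1 library in an arm, which is assumed to vary like the 2 libraries of the other genotype. It was 74 with no filter on low counts. The genes with the smallest p are therefore given as values. Klf2, the flow-induced factor, had 188 and 356 CPM in Apcdd1+/- and 113 and 67.7 in WT (log2 difference 1.56, SE 0.37, adjusted p = 0.758). Cdkn1c, a cell cycle inhibitor, had 357 and 152 CPM in Apcdd1+/- and 642 and 949 in WT (log2 difference -1.54, SE 0.33, adjusted p = 0.636). Both kept their groups apart in cells with 6 or more rule genes, at 204, 466, 131 and 151 CPM for Klf2 and 382, 194, 665 and 1431 CPM for Cdkn1c. In those cells Cdkn1c was the 1 gene called, at a log2 difference of -1.72. Both genes were picked for a small p, and those cells are 218 of the same 255, so this is no separate support. Ccnd2, a D-type cyclin, had 186 and 107 CPM in Apcdd1+/- and 338 and 737 in WT (log2 difference -1.75, SE 0.35), but 104, 80.5, 187 and 40.0 CPM in cells with 6 or more rule genes, where the groups overlapped.

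Among the other genes of smallest p were markers of other cell types. Pf4 had 185 and 2484 CPM in Apcdd1+/- and 3.56 and 87.8 in WT, and in cells with 6 or more rule genes it had 0, 3.35, 4.13 and 0 CPM. Itga2b, the platelet integrin CD41, had 63.7 and 523 CPM in Apcdd1+/- and 9.97 and 54.9 in WT, and 12.7, 36.9, 6.61 and 13.3 CPM in those cells. Crabp1, a retinoic acid binding protein of neural crest and mesenchyme, had 130 and 24.9 CPM in Apcdd1+/- and 363 and 1081 in WT, and 34.5, 13.4, 32.2 and 22.2 CPM in those cells. Except for Pf4 in WT replicate 1, each level was lower in those cells than in all endothelial cells of the same library. The 37 cells left out hold the platelet cells and are most frequent in WT replicate 2. The remaining genes of smallest p, Ctla2a and Rasgrp2 (higher values in Apcdd1+/-) and Rcor2 and Nr2f1 (lower values), had adjusted p-values from 0.467 (Rcor2) to 0.999 (Ctla2a).

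With edgeR on all 4 libraries, 0 genes of each list passed between genotypes. This changed for some lists, marker lists of other cell types among them, when single libraries were left out. Such a fit has 1 library in an arm, so no count of called list genes is read from it. All 15 immediate early genes tested had a positive difference, with a median of 0.79 beside 0.01 over all genes, but without Apcdd1+/- replicate 2 the sign was positive in 9 of 15. Of 15 artery and Notch genes 12 had a negative difference with a median of -0.32, and 12 of 15 did in cells with 6 or more rule genes. Of 16 endothelial transcription factors 14 were positive, but 9 of 16 in cells with 6 or more rule genes. Of 16 barrier and transport genes 10 were positive, but 7 of 16 in cells with 6 or more rule genes. Of 21 surface and signalling genes 19 were positive, but 4 of 21 in those cells, and of 15 basement membrane genes 10 were positive, but 3 of 15 in those cells.

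**Figure D5:**
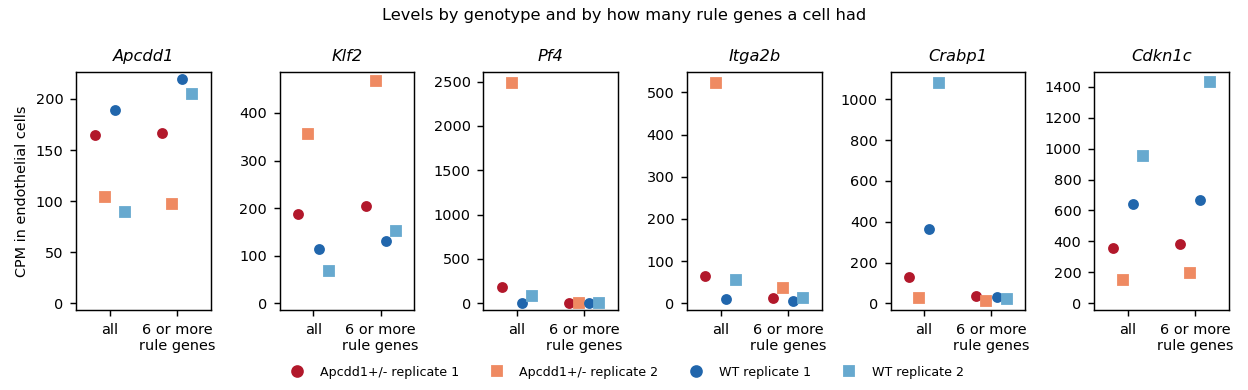
CPM (y axis) of 6 genes in all endothelial cells and in those with 6 or more rule genes (x axis), 1 symbol per library and red tones for Apcdd1+/-. Pf4, Itga2b and Crabp1 lie at 36.9 CPM or less in cells with 6 or more rule genes. Klf2 and Cdkn1c, picked for a small p, keep the genotypes apart in both sets, which share most of their cells.

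No difference in shares of cells between the genotypes passed a test, and with 2 libraries a side none could. Endothelial cells made up 1.38% (95% exact interval 1.15 to 1.63) and 0.415% (0.263 to 0.622) of kept cells in Apcdd1+/- and 1.25% (0.986 to 1.55) and 0.778% (0.494 to 1.17) in WT, intervals that cover counting error only. The difference of means was -0.115 percentage points (exact permutation test, two-sided p = 1), where 2 libraries against 2 cannot give a p under 0.33. The marked shares are of the 116, 22, 72 and 23 endothelial cells with 4000 UMIs. Artery-marked cells were 21.6% and 13.6% of them in Apcdd1+/- and 19.4% and 21.7% in WT (difference -3.00 points, exact p = 0.667). In cells with 6 or more rule genes the artery-marked difference was -11.7 points (exact p = 0.667), with 41.7% in WT replicate 2. Vein-marked cells were 53.5% and 54.5% against 52.8% and 26.1% (difference 14.6 points, exact p = 0.33), and without WT replicate 2 the difference was 1.22 points. Barrier-marked cells were 23.3% and 31.8% against 25% and 26.1% (difference 2.00 points, exact p = 1). All 4 p-values equal 1 when adjusted over the 4 shares by Benjamini-Hochberg.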

How the data were processed

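Single cells from E10.5 mouse heads were, per the labels' protocols, kept overnight in a preservation solution, dissociated, cleared of dead cells by DAPI sorting and captured with a DNBelab C kit. The deposited files hold UMI counts per gene and cell, which the authors made with PISA 0.12, per the file headers. The submitters' processing notes also name Scanpy 1.9.1 and the mm10 build. Doublets were not removed here, and no doublet removal is given in the sources used here.

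The members, gene lists and tests were chosen with earlier results of these data known. Counts were summed per library and cell set and fitted with edgeR 4.0.16 (quasi-likelihood test, TMM scaling, genes with low counts filtered by filterByExpr, R 4.3.3) with Benjamini-Hochberg adjustment over all genes of a fit, called at 0.05. Groups for the genotype fit were the 2 libraries of each genotype. Fits within endothelial cells took the library as a block, needed 10 cells of each kind in a library and so used 2 libraries, with the spread moderated over genes. They left out the genes used for marking. Cells were thinned to 4000 UMIs before marking, which left out 22 shallower cells, and then all their counts were summed. Levels in CPM were computed here. The SE given with an edgeR log2 difference was worked back from the test, as the size of the difference divided by the square root of its F statistic. Shares were compared with an exact permutation test over libraries. DESeq2 1.42.0, no filter, stricter cell rules, thinning to 2500 UMIs, all 4 libraries, no library block and leaving out each library were tried as alternatives. The rule of 6 or more endothelial genes was added after the data were seen. The edgeR tests were run on library sums simulated with known changes, drawn with the means and the trend of spread over level fitted to these data. Genes of equal level thus shared 1 spread, so this check cannot show how the tests do for genes whose libraries disagree more. The summing of cells was not part of that check.

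Named genes were chosen by rule. For the genotypes these were the 5 of smallest p in each direction at 50 CPM or more, since none was called. Against other cells they were the 15 highest and 5 lowest at 50 CPM or more that moved the same way in all 4 libraries. Within endothelial cells they were the called genes of largest difference at 20 CPM or more, of which only part is described. Called members of each list, most different first, came with them. Other list members were named for their role after their values were seen. Promoters were matched by symbol in RefSeq tables of GRCm38.p6. Depth was 1005 to 55374 UMIs an endothelial cell, and 401852 to 1569568 UMIs summed per library.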

Additional observations from a re-analysis of the deposited data

How the results depend on the processing

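Between genotypes the number of called genes was 0 with edgeR and rose to 1 with DESeq2, 74 with no filter on low counts, 1 in cells with 6 or more rule genes and 9 to 75 when each library was left out in turn. Libraries share replicate numbers, but the labels tie no number to a shared litter, batch or day, and with 2 pairs the correlation of deviations (0.0776 in endothelial cells, 0.183 in all kept cells) does not establish a pairing. With a replicate block 7 genes were called. Apcdd1 between genotypes had a log2 difference of -0.03 and changed sign without Apcdd1+/- replicate 2 (0.21) and without WT replicate 1 (0.74), within a range of -0.45 to 0.74 over left-out libraries. Artery against vein gave 334 genes, 63 with DESeq2 and 180 without cells that carried another class's markers. Barrier against unmarked gave 353 genes, 30 with DESeq2, 189 in cells with 4 or more rule genes, 178 with 6 or more, 70 without cells that carried another class's markers, 109 without the library block, 82 at 2500 UMIs and 45 over all 4 libraries. Endothelial against other cells gave 5046 genes and 3442 to 6422 over its alternatives. Leaving out a library was not run for the artery and barrier fits, which rest on 2 libraries. The cause of these changes was not tested.

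The share of endothelial cells differed by -0.115 percentage points (Apcdd1+/- minus WT) and turned positive with 4 or more rule genes (0.0167), without cells that carried another class's markers (0.0663) and with 6 or more rule genes (0.0381), and ranged from -0.597 to 0.367 with each library left out, with 0.119 without WT replicate 1. The artery-marked share differed by -3.00 points and ranged from -6.96 to 0.960 over left-out libraries, and was -8.61 with 4 or more rule genes, -10.2 without cells that carried another class's markers, -11.7 with 6 or more rule genes and -0.726 at 2500 UMIs. The vein-marked share differed by 14.6 points and ranged from 1.22 to 27.9 points over left-out libraries and from 5.30 to 16.1 over the other settings. The barrier-marked share differed by 2.00 points, by -3.75 with 4 or more rule genes, -0.846 without cells that carried another class's markers and -6.13 with 6 or more rule genes, and ranged from -2.27 to 6.28 over left-out libraries. Artery and barrier sums hold as few as 3 cells in a library, so levels there rest on few UMIs.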

Other observations

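Some gene groups did not enter the account above. Of 18 glycolysis and hypoxia genes, 9 were lower and 3 higher (10 and 5 in cells with 6 or more rule genes) in endothelial cells than in other head cells, and Hk1, a hexokinase, was higher (log2 difference 1.82, edgeR, beside a background of 33.4% of genes called). Of 14 tight and adherens junction genes, 8 were higher and 4 lower. Of 18 genes of BMP and TGF-beta signalling, 9 were higher and 3 lower, with Eng (endoglin) at a log2 difference of 7.24. Of 8 endocardial genes that could be tested, 4 were higher and 0 lower (4 and 2 in cells with 6 or more rule genes), Npr3 among them at 4.45. Of 9 haemogenic genes, 5 were higher and 1 lower, and in cells with 6 or more rule genes 2 were higher and 4 lower.

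Artery-marked cells also held more of some barrier genes. Of 16 barrier and transport genes, 5 rose and 0 fell, beside 5.01% of all genes called, with Foxq1 at a log2 difference of 2.12 and Slc2a1 at 1.25 (edgeR). Of the 118 vein-marked cells 25 (21.2%) were barrier-marked, and of the 47 artery-marked cells 18 (38.3%) were.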
